A study of Rattus norvegicus with 9 samples.

Results

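The plasminogen activator system was followed in rat chondrocytes through 5 genes, taken by symbol from a table of 17588 genes: Plau, Plat, Plaur, Serpine2 and Serpinb2. All 5 were found, once each. The libraries are poly(A) RNA of wild-type primary chondrocytes, the cells that build and keep cartilage matrix, in 3 groups of 3. The control group was in routine culture without interleukin-1β (IL-1β, an inflammatory cytokine that provokes matrix breakdown), the IL-1β group was in the same culture with the cytokine, and the co-culture group was exposed to IL-1β and shared a transwell with rat dermal fibroblasts, which lay in the upper chamber above the chondrocytes. There was no group with fibroblasts but without IL-1β. Nor was there one in a transwell without fibroblasts, so the fibroblasts and the culture format cannot be told apart. The dose and time of IL-1β, the length of co-culture, the age of the animals and the number of animals behind the replicates could not be learned from the labels. The p-values therefore measure the scatter of 3 libraries per group, whose source, biological or technical, is unknown.

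Plasmin is a broad serine protease that dissolves fibrin, cuts matrix proteins and can activate latent metalloproteinases. It is made from plasminogen by 2 activators, urokinase (encoded by Plau), which acts at the cell surface on its anchored receptor uPAR (Plaur), and tissue-type plasminogen activator (Plat). Serpins stop these enzymes by forming a covalent complex with them: protease nexin-1 (Serpine2) inhibits thrombin, urokinase and plasmin, and plasminogen activator inhibitor-2 (Serpinb2) inhibits both activators and is largely kept inside the cell. In cartilage the system is studied as a step ahead of collagenase activation.

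Values are FPKM, which corrects the fragments of a gene for the length of its transcript and the size of the library, as the authors deposited them; each mean is followed by ± its SD (n = 3). They sum to between 771058 and 832248 per library, lowest in the control libraries, and the number of reads behind them is unknown. All 7 chondrocyte markers checked were present, with a summed level of 1540 to 1620 FPKM in control, 303 to 319 in IL-1β and 441 to 488 in co-culture libraries. Of 8 macrophage markers 3, among them Ptprc, never reached 1 FPKM, and the list summed to 18.5 to 25.3 over all libraries. Most of this sum was Cd14, with means of 12.02, 15.95 and 13.91 FPKM in control, IL-1β and co-culture. Cd68 had means of 2.02, 3.66 and 2.68. Adgre1, Tyrobp and Laptm5 had lower means with IL-1β than in control. Of 7 endothelial markers 6 never reached 1 FPKM, Vwf among them at up to 0.02 FPKM, while Egfl7 was at 7.63 to 10.09. Of 7 neutrophil and mast cell markers 3 were found, of which Cpa3 and Kit never reached 1 FPKM. S100a8 had means of 0.75 ± 0.959, 3.49 ± 0.766 and 0.82 ± 0.348 FPKM in control, IL-1β and co-culture. Of 7 keratinocyte markers 6 were found, of which 5 never reached 1 FPKM, while Krt10 was at 1.13 to 2.27. The 7 dermal fibroblast markers, whose main members chondrocytes also make, summed to 495 to 502, 1440 to 1510 and 851 to 945 in control, IL-1β and co-culture libraries, with Dpp4 at no more than 0.11. The members differed: with IL-1β the mean of Dcn went from 32.45 to 324.0 and that of Lum from 87.8 to 764.5. Thy1 (323.4 to 313.0) and Pdgfra (53.1 to 59.2) changed little, and Cd34 went from 1.10 to 0.543. The part of these cell types in the results below was not tested. In such bulk RNA, fewer cells of a type and less RNA per cell cannot be told apart.

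All 5 genes stood highest with IL-1β, and in co-culture all 5 means lay between those of the other groups. The sizes differed. Plat and Serpinb2 returned most of the way to control in co-culture, whereas Plau and Serpine2 kept most of the difference that IL-1β made, as set out gene by gene. By level, Serpine2 was far above the others, at rank 188 of 17588 genes in control and 129 with IL-1β. Plau, Plat and Plaur were at ranks 2443, 3248 and 3553 in control, and Serpinb2 at 12222.

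**Figure D1:**
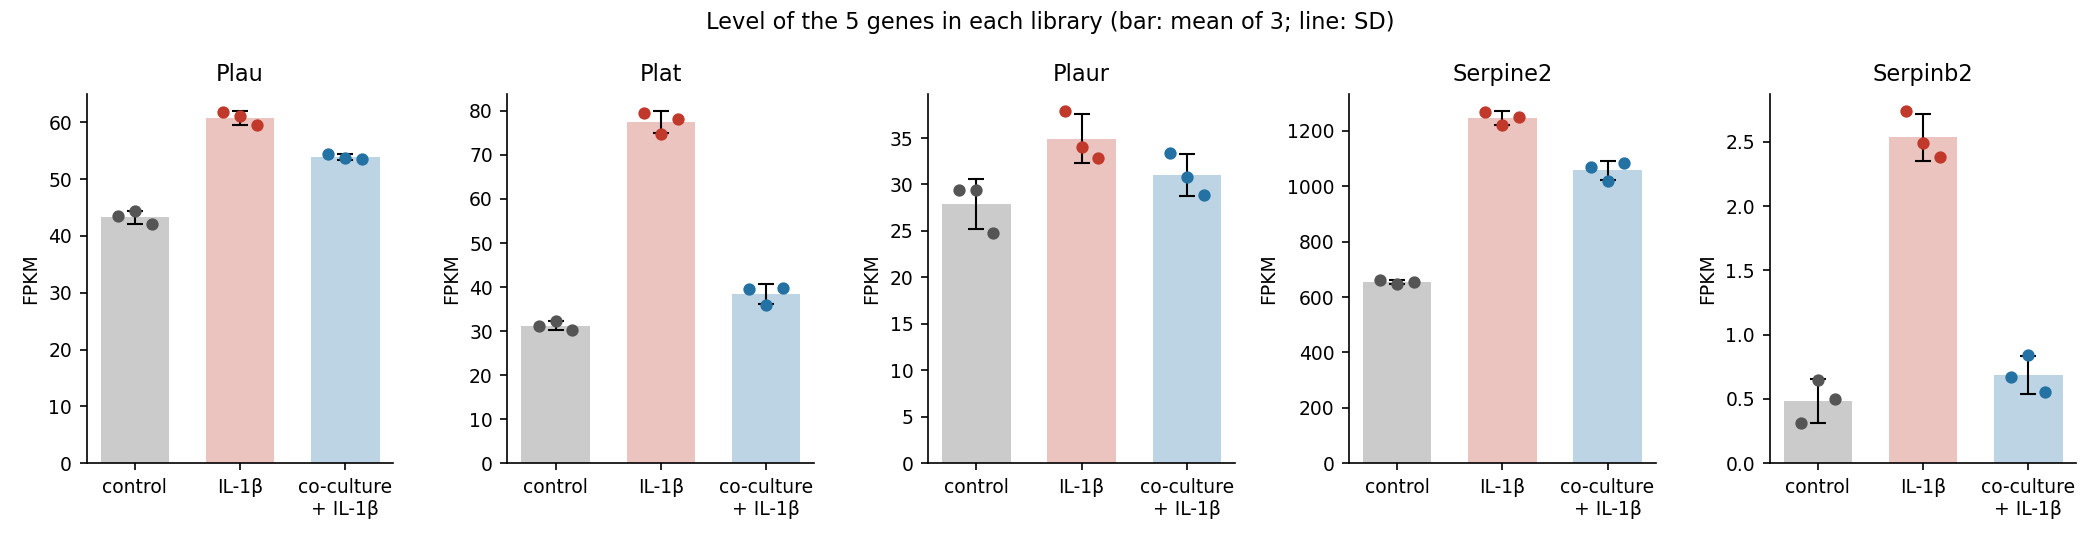
FPKM of Plau, Plat, Plaur, Serpine2 and Serpinb2 in the 3 libraries of each group (points), with the group mean (bar) and SD (line); each panel has its own axis from 0. The IL-1β points lie above all control points in every panel, and the co-culture points of Plat and Serpinb2 lie near control while those of Plau and Serpine2 lie nearer to IL-1β.

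Among the activators, urokinase rose moderately. Plau was at 43.47, 44.32 and 42.02 FPKM in the control libraries, at 61.77, 61.14 and 59.46 with IL-1β, and at 54.50, 53.76 and 53.55 in co-culture. The 3 groups did not overlap, and the order control, co-culture, IL-1β held for every pair of libraries. From control to IL-1β the mean went from 43.3 ± 1.16 to 60.8 ± 1.19, a 1.4-fold rise (log2 change 0.48, SE 0.03, limma adjusted p = 6.38e-07). In co-culture it fell to 53.9 ± 0.499, 1.13-fold below IL-1β (log2 change -0.17, SE 0.03, adjusted p = 0.0032), which left it 1.25-fold above control (log2 change 0.31, adjusted p = 3.2e-05). The co-culture mean kept 60.9% (SE 3.3) of the IL-1β difference in FPKM.

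The gene of the tissue-type activator moved further in both directions. Plat was at 31.26, 32.20 and 30.32 FPKM in control, 79.60, 74.76 and 78.09 with IL-1β, and 39.61, 35.87 and 39.83 in co-culture. All IL-1β libraries were above all others, and the co-culture libraries were above control without overlap. The rise from 31.3 ± 0.94 to 77.5 ± 2.48 was 2.48-fold (log2 change 1.28, SE 0.046, limma adjusted p = 8.8e-09). Co-culture brought it down 2.02-fold to 38.4 ± 2.23 (log2 change -0.99, SE 0.046, adjusted p = 6.65e-07). A difference of 1.23-fold from control stayed (log2 change 0.29, adjusted p = 0.000918), 15.5% (SE 3.0) of the IL-1β difference.

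The receptor gene had the smallest IL-1β change of the 5 and the widest spread of the 4 genes above 20 FPKM. Plaur was at 29.39, 29.43 and 24.78 FPKM in control, 37.90, 34.08 and 32.87 with IL-1β, and 33.34, 30.84 and 28.84 in co-culture. Control and IL-1β did not overlap, but the co-culture libraries overlapped both. The rise from 27.9 ± 2.67 to 34.95 ± 2.63 was 1.25-fold (log2 change 0.32, SE 0.079, limma adjusted p = 0.00803). The co-culture mean of 31.01 ± 2.25 did not pass the test against IL-1β (log2 change -0.17, 95% interval -0.34 to 0.01, adjusted p = 0.165) or against control (0.15, interval -0.03 to 0.33, adjusted p = 0.174). A change as large as that of Plau in co-culture lies inside the first interval, so at this spread the receptor could not be told from urokinase in its co-culture change.

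Protease nexin-1 was the most abundant member. Serpine2 was at 662.36, 648.81 and 653.90 FPKM in control, 1270.24, 1220.42 and 1249.73 with IL-1β, and 1070.50, 1017.95 and 1083.41 in co-culture. The groups did not overlap. It rose 1.9-fold with IL-1β, from 655 ± 6.84 to 1247 ± 25.0 (log2 change 0.93, SE 0.029, limma adjusted p = 3.78e-09). It fell 1.18-fold in co-culture, to 1057 ± 34.7 (log2 change -0.24, SE 0.029, adjusted p = 0.000362). It stayed 1.61-fold above control (log2 change 0.69, adjusted p = 8.08e-08) and kept 68.0% (SE 3.8) of the IL-1β difference.

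Serpinb2, the gene of plasminogen activator inhibitor-2, was scarce. It was at 0.31, 0.65 and 0.50 FPKM in control, 2.74, 2.49 and 2.38 with IL-1β, and 0.67, 0.84 and 0.55 in co-culture. The IL-1β libraries stood apart, and the co-culture and control libraries overlapped. Only the IL-1β libraries reached 1 FPKM, so Serpinb2 passed the filter on low values (1 FPKM in 3 or more libraries) through them alone. The p-values against this group are not independent of that selection and are given as description. Mean FPKM was 5.21-fold higher with IL-1β (0.487 ± 0.17 to 2.54 ± 0.184; log2 change of FPKM + 1 1.26, SE 0.106, limma adjusted p = 6.38e-06). It was 3.69-fold lower in co-culture than with IL-1β (0.687 ± 0.146; log2 change -1.07, SE 0.106, adjusted p = 9.21e-05). Against control the co-culture difference did not pass (0.18, 95% interval -0.05 to 0.42, adjusted p = 0.216), and 9.76% (SE 6.0) of the IL-1β difference was kept. The pseudocount of 1 matters at this level: with 0.1 in its place the first log2 change is 2.21.

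**Figure D2:**
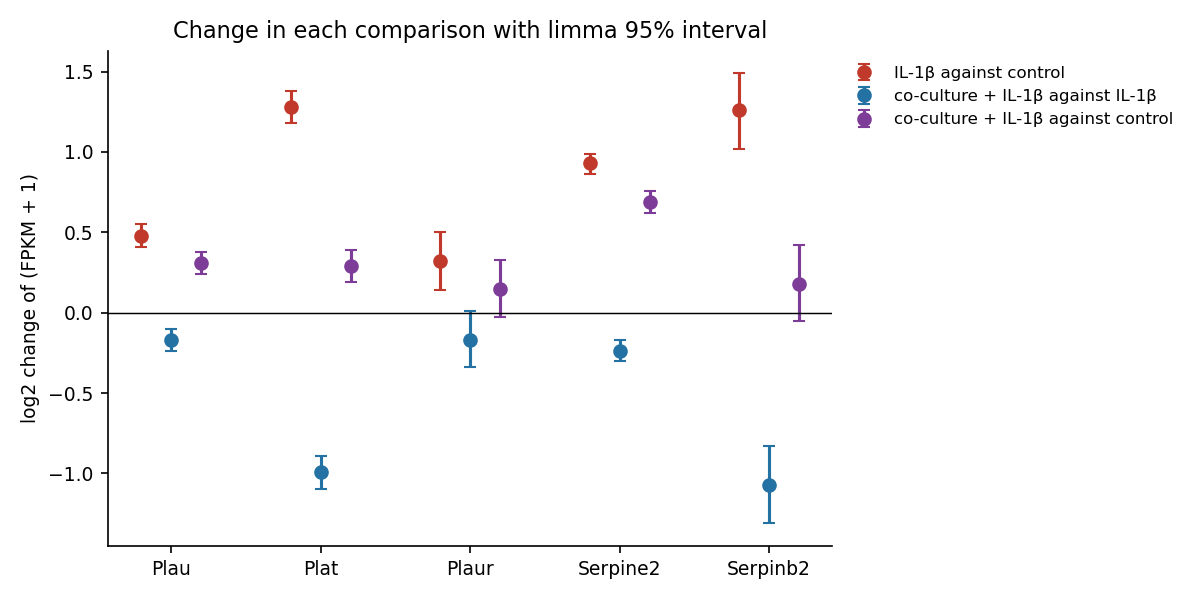
Log2 change of FPKM + 1 (vertical axis) for each of the 5 genes in the 3 comparisons, with limma's 95% interval as the line. The IL-1β changes range from 0.32 (Plaur) to 1.28 (Plat), and the co-culture changes against IL-1β from -1.07 (Serpinb2) to -0.17 (Plau and Plaur), where the interval of Plaur reaches 0.01.

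In limma all 5 genes were called higher with IL-1β, where 46.7% of the 11732 tested genes were called with 26.5% higher and 20.2% lower. Against IL-1β alone 4 were called lower in co-culture, where 22.0% of tested genes were called, 11.9% higher and 10.1% lower. Against control 3 were called higher in co-culture, beside 33.9% of all tested genes called, 21.8% higher and 12.2% lower. The comparisons share libraries, so these counts are not independent of each other. Serpinb2 reached 1 FPKM only in the IL-1β libraries and passed the filter on low values through them alone, whereas the other 4 passed in every group. With no filter on low values Serpinb2 was still called higher with IL-1β than in control (log2 change 1.26). It was also still called lower in co-culture than with IL-1β (-1.07). The median log2 change of the tested genes was 0.02, 0.02 and 0.04 in the 3 comparisons. Of the genes called with IL-1β 56.7% were higher, against 41.4% with libraries rescaled to a common sum, 40.7% with quantile normalization and 49.9% with median-of-ratios scaling; for co-culture against control it was 64.2%, against 43.4%, 44.1% and 49.8%. Under these scalings the 5 genes kept their direction in the 3 comparisons, except Serpinb2 in co-culture against control, which was not called and stood at -0.03 with quantile normalization in place of 0.18.

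Ratios between genes of the same library do not change when a library is multiplied by a constant, although quantile normalization can change them. The ratio of Plat to Plau FPKM was 0.719, 0.727 and 0.722 in control, 1.29, 1.22 and 1.31 with IL-1β, and 0.727, 0.667 and 0.744 in co-culture. Plau was thus the more abundant activator transcript in control and co-culture, and Plat with IL-1β, with no overlap between IL-1β and either other group. For both differences the exact two-sided permutation test gave p = 0.1, the smallest that 3 against 3 libraries allow (0.225 adjusted over the 9 ratio tests made). Control and co-culture ratios, 0.722 ± 0.0038 and 0.713 ± 0.04, overlapped (exact p = 1.0).

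The ratio of Serpine2 to the sum of both activators followed another course. It was 8.86, 8.48 and 9.04 in control and 8.99, 8.98 and 9.09 with IL-1β, which overlapped (exact permutation p = 0.3, adjusted 0.386). In co-culture it was 11.4, 11.4 and 11.6, above every library of the other groups (exact permutation p = 0.1 for each, the smallest possible, adjusted 0.225). Transcripts of this inhibitor therefore stood at 8.79 ± 0.29 to 9.02 ± 0.059 per activator transcript in routine culture and at 11.4 ± 0.14 in co-culture. The ratio of Plau to Plaur was 1.56 ± 0.12, 1.74 ± 0.099 and 1.74 ± 0.11 in control, IL-1β and co-culture libraries, and the groups overlapped (exact permutation p between 0.2 and 1.0). These are ratios of RNA, and neither protein nor enzyme activity was measured.

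**Figure D3:**
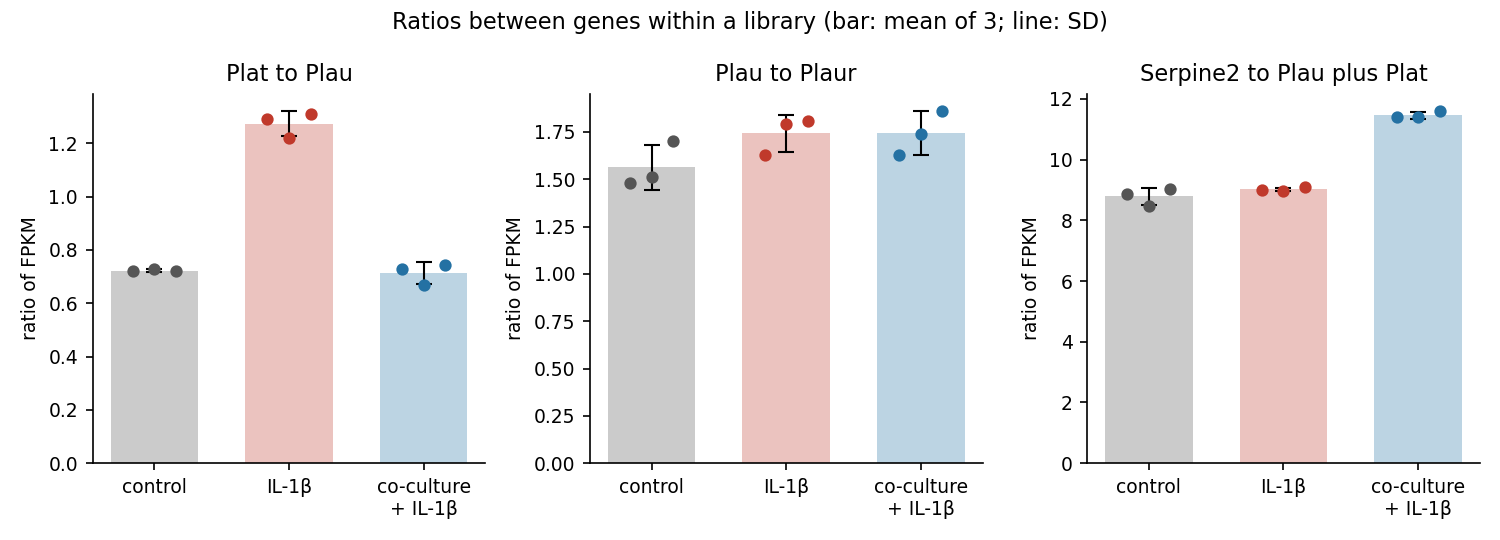
Ratios of FPKM within each library (points) for Plat to Plau, Plau to Plaur, and Serpine2 to the sum of Plau and Plat, with group mean (bar) and SD (line). Plat to Plau is high in the IL-1β group only (mean 1.27), and Serpine2 to the activators is high in the co-culture group only (mean 11.4).

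Since all members were higher with IL-1β, the RefSeq promoters (GRCr8, 250 bases before to 50 after the annotated start) of the 4 members that the promoter table holds, Plau, Plaur, Serpine2 and Serpinb2, were searched on both strands for 4 motifs of factors that respond to inflammatory signals. These were AP-1 (TGANTCA), CRE (TGACGTCA), NF-κB (1 form of its site, with fixed letters at most positions) and C/EBP (TTNNGNAAT). Other forms of the NF-κB site were not searched. Plaur and Serpinb2 held 1 AP-1 match each, TGACTCA starting 83 bases and TGATTCA starting 189 bases before the start. No other match to the motifs as searched was found in the 4 windows. Of all 33469 RefSeq promoters given, 7.33% held AP-1, 1.83% CRE, 1.11% the searched form of NF-κB and 12.3% C/EBP. The windows differ in composition, with 42.7% G and C for Serpinb2, 54.0% for Plaur, 61.0% for Plau and 77.0% for Serpine2, beside a median of 51.7% over all promoters. The 250 bases before the start are shown for both genes with a match, 5′ to 3′ on the gene's strand, with the AP-1 letters in capitals. They lie at chr1:89181113-89181362 (plus strand) for Plaur and chr13:24055771-24056020 (plus strand) for Serpinb2.
Plaur: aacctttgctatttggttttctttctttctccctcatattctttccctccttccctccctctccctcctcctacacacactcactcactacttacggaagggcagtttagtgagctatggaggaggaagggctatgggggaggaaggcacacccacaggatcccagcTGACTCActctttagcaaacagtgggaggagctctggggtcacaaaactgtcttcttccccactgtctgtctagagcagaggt
Serpinb2: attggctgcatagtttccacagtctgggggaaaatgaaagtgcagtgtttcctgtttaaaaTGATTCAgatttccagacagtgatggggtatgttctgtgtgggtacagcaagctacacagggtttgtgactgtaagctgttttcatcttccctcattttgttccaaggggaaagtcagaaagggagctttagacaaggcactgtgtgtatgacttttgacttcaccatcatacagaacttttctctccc
A match is a run of letters and does not show that a factor binds there; binding was not measured.

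The genes that bind plasminogen, partner the receptor or clear the activators split in direction. Of 12 tested genes of this list 6 rose and 3 fell with IL-1β, with a median log2 change of 0.11. The share called was 75.0%, beside 46.7% of all tested genes. This list and those below were chosen with earlier results of these data known, so such shares were not tested as an excess. S100a10, which with annexin A2 forms a cell-surface binding site for plasminogen and tissue-type activator, fell 1.48-fold from 1336 ± 56.1 to 904 ± 31.0 FPKM (limma adjusted p = 2.03e-06). Its partner Anxa2 was at 2124 ± 9.80 and 2393 ± 26.8 FPKM (log2 change 0.17, adjusted p = 0.00026). Lrp1, the endocytic receptor that removes activator-serpin complexes, rose 1.48-fold from 37.7 ± 1.29 to 55.9 ± 1.44 (adjusted p = 4.95e-07). The integrin subunit Itgb3 rose 2.23-fold, from 3.24 ± 0.0603 to 7.24 ± 0.131 (adjusted p = 3.25e-07). Itgb1 fell from 608 ± 3.12 to 477 ± 7.94 and Itgb5 from 88.05 ± 2.09 to 64.6 ± 1.73 (adjusted p = 1.29e-06 and 7.02e-06). Plasminogen itself was hardly seen: Plg did not exceed 0.06 FPKM in any library. The plasminogen receptor Plgrkt was at 25.01 ± 1.42, 23.9 ± 1.39 and 25.2 ± 1.93 in control, IL-1β and co-culture and passed no test.

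In co-culture against IL-1β, 3 genes of that list were higher and 2 lower, and 7 were not called (median -0.03). The share called was 41.7%, beside 22.0% of all tested genes. The 5 called all moved against their IL-1β change, in a comparison that shares the IL-1β libraries. S100a10 was at 1038 ± 39.4 FPKM (adjusted p = 0.00699), Itgb1 at 539.7 ± 9.78 (0.000616) and Itgb5 at 75.9 ± 3.39 (0.00212), each above IL-1β and below control. Lrp1 was at 42.4 ± 0.301 (adjusted p = 3.52e-05) and Itgb3 at 4.97 ± 0.32 (0.000256), each below IL-1β and above control. Eno1, a glycolytic enzyme that also binds plasminogen at the cell surface, was at 2029 ± 36.1 in control, 2424 ± 37.6 with IL-1β and 2373 ± 66.7 in co-culture. Its rise with IL-1β (log2 change 0.26, adjusted p = 4.77e-05) was reduced to 0.06 and lost with quantile normalization (adjusted p = 0.0791).

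Of 9 tested genes among other serpins and protease inhibitors 2 rose and 4 fell with IL-1β (median log2 change -0.05). The share called was 66.7%, beside 46.7% of all tested genes. Tfpi2, a Kunitz inhibitor that acts on plasmin, rose 3.14-fold from 6.16 ± 0.318 to 19.3 ± 2.71 FPKM (limma adjusted p = 2.98e-07) and was at 11.9 ± 0.565 in co-culture (adjusted p = 0.000481 against IL-1β). Serping1, the C1 inhibitor, rose 2.85-fold from 2.64 ± 0.129 to 7.55 ± 0.623 (adjusted p = 2.13e-07) and was at 5.9 ± 0.278 in co-culture (0.00897). Serpinb8, an intracellular relative of Serpinb2, took the opposite course, from 2.22 ± 0.284 to 0.44 ± 0.0781 and back to 1.27 ± 0.176 (adjusted p = 5.36e-06 and 0.00107). Serpinb9, which inhibits granzyme B, did likewise, from 31.1 ± 0.325 to 21.05 ± 0.503 and 32.4 ± 1.90 (adjusted p = 3.84e-06 and 9.46e-06). Serpinb8 is low, and with a pseudocount of 0.1 its IL-1β log2 change is -2.11 in place of -1.16. Clade B serpins have close relatives in the rat, among which the authors' counting could have split reads. Serpinf1 and the collagen chaperone Serpinh1 fell with IL-1β, to 219 ± 9.84 and 1346 ± 13.8 from 248 ± 2.69 and 1965 ± 39.3 (adjusted p = 0.00142 and 4.91e-07). In co-culture against IL-1β 3 of the 9 were higher and 2 lower (median -0.01), 55.6% called beside 22.0% of all tested genes. Serpinf2, the main plasma inhibitor of plasmin, did not exceed 0.21 FPKM.

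Of 7 tested genes of clotting and its control 4 rose and 2 fell with IL-1β (median log2 change 0.42). The share called was 85.7%, beside 46.7% of all tested genes. Among the 4 was F13a1, at 0.56 to 0.88 FPKM in control and 1.27 to 1.40 with IL-1β. Without the IL-1β libraries F13a1 would not have passed the filter on low values. Thrombomodulin (Thbd), which turns thrombin from clotting to protein C activation, rose 7.29-fold, from 7.69 ± 0.183 to 56.1 ± 1.72 FPKM (limma adjusted p = 2.1e-11). It fell 2.12-fold in co-culture, to 26.5 ± 0.638 (adjusted p = 2.28e-07). Tissue factor (F3), the trigger of clotting, rose from 178 ± 6.68 to 260.5 ± 6.86 and was at 219 ± 2.58 in co-culture (adjusted p = 4.63e-07 and 0.000529). Its inhibitor Tfpi rose from 34.0 ± 0.545 to 66.2 ± 4.41 (adjusted p = 1.93e-07) and was at 57.06 ± 2.73 in co-culture (0.0145). The co-culture call of Tfpi ended without co-culture replicate 2 (log2 change -0.18, adjusted p = 0.0564). The thrombin receptor F2r fell from 37.3 ± 0.788 to 24.4 ± 0.662 and was at 30.5 ± 1.17 in co-culture (adjusted p = 7.24e-07 and 0.000333). In co-culture against IL-1β 2 of the 7 were higher and 3 lower (median -0.21), 71.4% called beside 22.0% of all tested genes. The clotting factors F7 and F10 did not exceed 0.13 FPKM.

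**Figure D4:**
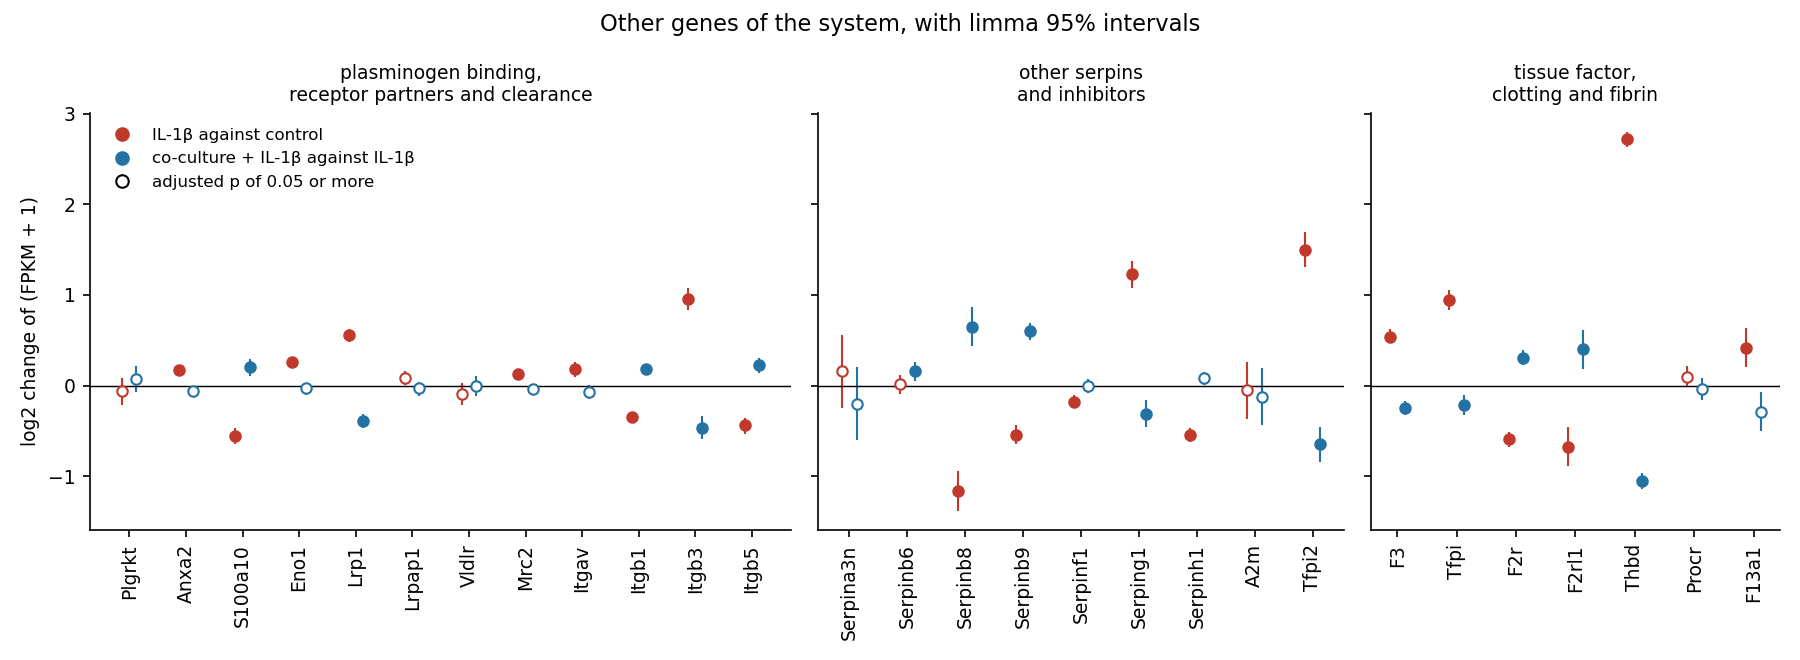
Log2 change of FPKM + 1 (vertical axis, line: limma's 95% interval) for the tested genes of the 3 lists, with IL-1β against control in red, the co-culture group against the IL-1β group in blue, and open points for an adjusted p of 0.05 or more. On this scale Thbd has the largest IL-1β change shown, 2.72, and the largest co-culture change, -1.05. By ratio of mean FPKM the co-culture change of Serpinb8 is larger, 2.88-fold beside 2.12-fold for Thbd.

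The 8225 named genes averaging 5 FPKM or more were ranked by how closely their log2(FPKM + 1), centred on the control mean, followed each member over the 9 libraries (root mean square difference). Pkm, which encodes pyruvate kinase, and Cnp were nearest to Plau, both at 0.027, and Wbp1l followed at 0.029. Atp6v1f was nearest to Plaur at 0.051, then Atp23 at 0.061 and Sh2b3 at 0.062. Pygl, glycogen phosphorylase, was nearest to Serpine2 at 0.037, ahead of Tfpi at 0.049 and Myzap at 0.064. Among the 3 nearest to Plat were Cadm1 (0.122) and Phlda1 (0.138), and among the 3 nearest to Serpinb2 were Plat (0.139) and Mtmr7 (0.182). The nearness of Serpinb2 to Plat depends on the pseudocount. Their IL-1β log2 changes are 1.26 and 1.28 with a pseudocount of 1, but 2.21 and 1.31 with 0.1.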

How the data were processed

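RNA of 9 libraries, 3 per group, was analysed from 1 table of FPKM values with 2 decimals that the authors deposited, per the file headers. Per the submitters' processing notes the genome build was GRCm38, which is that of the mouse, while the labels say rat and the gene identifiers are rat ones. Nothing used here names the aligner, counting tool, annotation or strand handling, so overlapping and antisense genes cannot be told apart. Depth is unknown, since the lowest values were too coarse to recover reads, and no count test was run. Groups came from the sample titles and columns from the library names. The 11732 genes that reached 1 FPKM in 3 or more libraries were tested on log2(FPKM + 1) without rescaling, with limma 3.58.1 (R 4.3.3) fitted to all 9 libraries together (trended prior variance, two-sided tests). Benjamini-Hochberg adjustment ran over all tested genes of a comparison, and "called" means an adjusted p below 0.05. Fold changes beside FPKM are ratios of means; log2 changes understate those of low genes. The share of an IL-1β difference kept in co-culture is a ratio of differences of mean FPKM, with its SE propagated from the SDs.

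The members and lists were chosen with earlier results of these data known. The lists named up to 4 called genes each per comparison by smallest p; Anxa2, Plgrkt, Plg, Serpinf2, F7 and F10 were named after their values were seen. Of the 15, 16 and 12 listed genes 14, 13 and 10 were found, and 2, 4 and 3 of these were below the filter, at 0.72 FPKM or less. The rule took the 3 nearest genes of each member, of which 1 is not reported here. Not every gene of the system is described here. Sequences are from RefSeq promoters (GRCr8). Figures were drawn with matplotlib 3.10.9.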

Additional observations from a re-analysis of the deposited data

How the results depend on the processing

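The alternatives were other pseudocounts, filters, scalings, only the 6 libraries compared, no trend, a replicate block, and leaving out each library. Direction held for the 5 members in the 3 comparisons, except Serpinb2 in co-culture against control, which turned from 0.18 to -0.03 with quantile normalization and was called in neither (adjusted p = 0.216 and 0.853). The calls of the members held except for 2 of Plaur. With the replicate block Plaur was called in co-culture against IL-1β (log2 change -0.17, adjusted p = 0.0325) and against control (0.15, adjusted p = 0.032). Libraries with the same number did not deviate together (correlations of deviations -0.091 to 0.085, and 1 of 9 libraries correlated best with its own number in both other groups), so the numbers were not taken as pairs. Serpinb2 was not tested with the filter at a mean of 5 FPKM. Leaving out 1 library moved the IL-1β change of Plaur between 0.24 and 0.36. Over all alternatives its adjusted p was at most 0.0324. With libraries rescaled to a common sum, 7 in place of 12 of the other genes were called higher in co-culture against control, and the call of Lrp1 there ended (log2 change 0.11, adjusted p = 0.0903). Serpinh1, not called in co-culture against IL-1β, was called with quantile normalization (0.12) and without co-culture replicate 3 (0.11). Among differences that were not called, Eno1 in co-culture against IL-1β turned from -0.03 to 0.03 with quantile normalization, Serpinb9 in co-culture against control from 0.06 to -0.01 after rescaling to a common sum, and Serpinf1 in co-culture against IL-1β ranged from -0.04 to 0.02 when 1 library was left out. The cause was not tested. An exact permutation test of 1 gene cannot go below p = 0.1 with 3 against 3 libraries and so cannot bear on the calls. The depth behind low values, such as those of Serpinb2 at 0.31 to 0.84 FPKM outside the IL-1β group, is unknown.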
